A study of Mus musculus with 4 samples.

Results

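Lipolysis, the release of fatty acids from stored triglyceride, was followed in isolated adipocytes through 9 genes: the triglyceride lipases and their coactivator (Pnpla2, Abhd5, Lipe and Mgll), the adrenergic receptors that switch the pathway on or off (Adrb1, Adrb3 and Adra2a), and a pair of genes of the cyclic AMP relay (Pde3b and Prkar2b). They were taken by symbol from the 55487 genes of the deposited table, and all 9 were present and passed the filter on low values that left 16871 genes for testing. The study sequenced RNA of fat cells prepared from the perigonadal depot, the visceral fat around the epididymis, of males on a standard diet. There were 2 libraries from CKO mice and 2 from control littermates, whose label reads WT. The series title names the transcription factor BLIMP1, encoded by Prdm1, and macrophages. The meaning of CKO, the allele, any Cre driver and the age of the mice are not stated in the labels. Nor is it stated whether each library came from a separate animal, so the p-values refer to the spread between libraries, which may be technical.

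In an adipocyte at rest, perilipin on the droplet surface holds the coactivator ABHD5 away from the first lipase. Noradrenaline acting on beta-adrenergic receptors raises cyclic AMP through adenylyl cyclase, cyclic AMP frees the catalytic subunits of protein kinase A from their regulatory subunits, and the kinase phosphorylates perilipin and hormone-sensitive lipase. Triglyceride is then cut in turn to diglyceride, monoglyceride and glycerol. Alpha-2 receptors and the insulin-activated phosphodiesterase PDE3B oppose the pathway by lowering cyclic AMP.

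Recovered read totals were between 24152081 and 26742547 per library. The first principal component of the genes tested held 77.7% of the variance, on which the CKO libraries scored 84.4 and 38.0, WT replicate 1 scored -4.18 and WT replicate 2 stood apart at -118.2. Prdm1 had 152 and 386 reads in CKO against 514 and 1135 in WT. The part of the gene that a CKO allele would lack is not given, so this level does not check the labels. The 12 adipocyte markers, led by Fabp4, Cfd, Lpl and Cidec, were all detected, with a summed level of 1583510 and 966448 reads per size factor in CKO against 913992 and 419124 in WT. The sum of 12 macrophage markers ran the other way, with 41689 and 96677 in CKO against 200353 and 582560 in WT. Not every adipocyte marker followed its sum: 10 were higher in CKO and 2 lower. These 2 were Lep and Lpl, with log2 differences (CKO minus WT) of -1.23 and -0.28. Lpl is also on the list of lipid-associated macrophage markers. It gave 224288 and 113808 of the summed adipocyte marker level in CKO, and 188431 and 199515 in WT replicates 1 and 2. Of the brown adipocyte markers, Ucp1 had at most 5 reads in any library. In such bulk RNA, fewer cells of a type and less RNA per cell cannot be told apart.

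Of the 9 lipolysis genes, 8 had a higher mean log2 level in the CKO libraries and none passed the adjusted threshold. The median difference was 1.08 on the log2 scale, CKO minus WT, beside 0.015 over all genes tested. Adrb3, the main beta receptor of mouse fat cells, had the largest difference of the 9, at 2.12 (SE 1.16), and Adra2a was the only member with a negative one. No member reached an adjusted p under 0.05 in limma (0 of 9, against 0% of the 16871 genes tested) or an unadjusted p under 0.05 (0 of 9, against 3.35% of genes higher and 7.26% lower). Adjusted p-values of the members ran from 0.480 to 0.853, and the 95% interval of the difference held 0 for all 9. The groups did not overlap, with CKO higher, for Pnpla2 and Mgll alone, 2 of 9 genes against 23.9% of all genes tested, and with CKO lower for 0 of 9, against 26.8%.

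**Figure D1:**
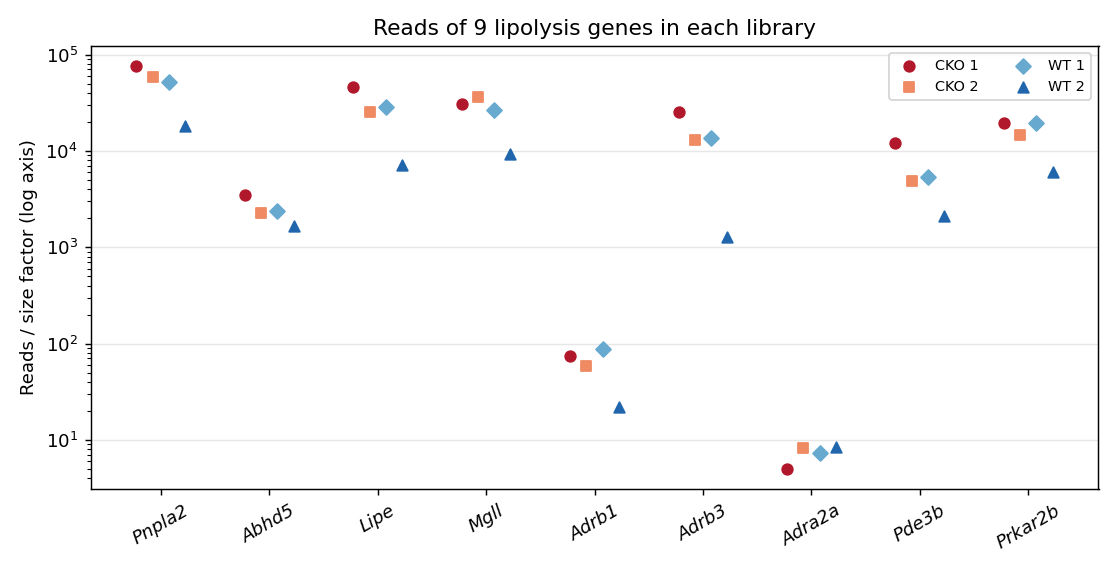
Reads of each gene divided by the library's size factor, on a log axis, in CKO replicates 1 and 2 and WT replicates 1 and 2. WT replicate 2 is the lowest library for 8 of the 9 genes, while CKO replicate 2 and WT replicate 1 lie close together, at a ratio between 0.665 for Adrb1 and 1.36 for Mgll.

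Pnpla2 encodes adipose triglyceride lipase, which takes the first fatty acid off the triglyceride. It lies on chromosome 7 of GRCm38 (141455198 to 141460743, plus strand) and had 75711 and 64255 reads in CKO against 49446 and 17197 in WT. After division by size factors the mean level was 67024 ± 12476 (SD, n = 2) for CKO, compared with 34713 ± 23519 (SD, n = 2) for WT. Each CKO value was above each WT value, with WT replicate 1 close below CKO replicate 2 and WT replicate 2 far below. The log2 difference was 1.12 (SE 0.73), with an adjusted p of 0.524 in limma.

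Abhd5 encodes the coactivator of that lipase, also called CGI-58, on chromosome 9 (122351608 to 122381524, plus strand). It had 3472 and 2520 reads in CKO against 2276 and 1566 in WT. CKO replicate 1 was the high library, WT replicate 2 the low one, and the groups overlapped because WT replicate 1 exceeded CKO replicate 2 once size factors were applied (2363 against 2283 scaled reads). Its difference of 0.51 (SE 0.34) was the smallest of the lipase group, and its span of 2.11-fold from lowest to highest library compares with 4.19-fold for Pnpla2. Per kilobase of exon, Pnpla2 exceeded its coactivator 43.0-fold and 50.3-fold in the CKO libraries, 42.9-fold in WT replicate 1 and 21.7-fold in WT replicate 2.

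The promoters of this pair are shown because the lipase and its coactivator differed in how far their levels moved between libraries. Of the 9 genes, 7 have an entry in the RefSeq promoter table for GRCm38.p6, and Pnpla2 and Abhd5 are those of the lipase group whose window overlaps no annotated exon. Each line gives 240 bases on the plus strand, ending 11 bases before the RefSeq start, at chr7:141454938-141455177 for Pnpla2 and chr9:122351366-122351605 for Abhd5. Capitals mark matches on either strand to GGGCGG (the GC box), TGACG (the core of the cyclic AMP response element, CRE) and AGGTCA (a motif bound by nuclear receptors).
Pnpla2: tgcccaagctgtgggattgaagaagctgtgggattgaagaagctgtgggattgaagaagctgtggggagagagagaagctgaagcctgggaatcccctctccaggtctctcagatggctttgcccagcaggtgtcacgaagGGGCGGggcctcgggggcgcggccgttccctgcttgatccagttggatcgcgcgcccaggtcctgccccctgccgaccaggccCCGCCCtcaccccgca
Abhd5: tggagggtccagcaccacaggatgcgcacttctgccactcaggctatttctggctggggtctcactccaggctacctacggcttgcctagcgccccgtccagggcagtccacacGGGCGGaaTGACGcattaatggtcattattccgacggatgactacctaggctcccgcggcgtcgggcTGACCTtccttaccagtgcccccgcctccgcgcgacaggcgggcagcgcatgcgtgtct
The Pnpla2 window held 2 GC boxes, and the Abhd5 window held 1 GC box, 1 TGACG and 1 AGGTCA. Among 32851 promoter windows of the same length, 31.3% held GGGCGG, 16.9% TGACG and 13.5% AGGTCA. The full response element TGACGTCA, found in 1.44% of windows, was in neither. These matches describe the letters of the windows only.

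Lipe encodes hormone-sensitive lipase, which acts mainly on diglyceride and is a target of protein kinase A (chromosome 7, 25379527 to 25398710, minus strand). It had 45485 and 28268 reads in CKO against 27556 and 6840 in WT. CKO replicate 2 and WT replicate 1 were nearly level at 25605 and 28613 scaled reads, so the groups overlapped, and WT replicate 2 was again far below. The log2 difference was 1.25 (SE 0.79), with an adjusted p of 0.519 in limma.

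Mgll encodes monoglyceride lipase, which frees the last fatty acid (chromosome 6, 88724412 to 88828360, plus strand). Its reads were 30446 and 40011 in CKO against 25677 and 8873 in WT. In scaled reads it was the only member highest in CKO replicate 2, and the groups did not overlap. The log2 difference was 1.08 (SE 0.63), with an adjusted p of 0.499 in limma.

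Among the receptors, Adrb3 varied most. This gene of the beta-3 adrenergic receptor, on chromosome 8 (27225776 to 27250616, minus strand), had 25100 and 14245 reads in CKO against 12994 and 1214 in WT. After scaling, WT replicate 1 (13493) was slightly above CKO replicate 2 (12903), and WT replicate 2 (1276) stood 10.6-fold below WT replicate 1. That ratio between the WT libraries was the largest of the 9 genes, where Pnpla2 had 2.84, Lipe 3.98 and Abhd5 1.44. The adjusted p of Adrb3 was 0.482 in limma.

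Adrb1, the beta-1 receptor, was present at a low level (chromosome 19, 56722199 to 56733113, plus strand). Its reads were 74 and 64 in CKO against 84 and 21 in WT, with exact Poisson 95% intervals, which cover counting error only, of 58.1 to 92.9 and 49.3 to 81.7 in CKO and of 67 to 104 and 13 to 32.1 in WT. WT replicate 1 was the highest library and WT replicate 2 the lowest, so both extremes fell in 1 group. The difference was 0.56 (SE 0.75). The ratio of Adrb3 to Adrb1 per kilobase of exon was 340 and 223 in CKO against 155 and 57.9 in WT, the last of these resting on 21 reads of Adrb1.

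Adra2a, the inhibitory alpha-2A receptor, was close to the limit of counting (chromosome 19, 54044151 to 54048982, plus strand). It had 5 and 9 reads in CKO against 7 and 8 in WT. All 4 exact Poisson intervals overlapped, from 1.62 to 11.7 at the lowest count to 4.12 to 17.1 at the highest. Its difference of -0.25 (SE 0.57) was not detectable at this depth.

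Pde3b encodes the phosphodiesterase through which insulin lowers cyclic AMP in fat cells (chromosome 7, 114415281 to 114539251, plus strand). It had 12179 and 5332 reads in CKO against 5101 and 2025 in WT. CKO replicate 1 was 2.53-fold above CKO replicate 2, the widest gap between the CKO libraries among the 9 genes, and CKO replicate 2 fell just under WT replicate 1 after scaling. The log2 difference was 1.19 (SE 0.65), with an adjusted p of 0.480 in limma.

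Prkar2b encodes the RII-beta regulatory subunit of protein kinase A, the main regulatory subunit of white fat (chromosome 12, 31958476 to 32061296, minus strand). Its reads were 19451 and 16087 in CKO against 18928 and 5701 in WT. WT replicate 1 and CKO replicate 1 were level at 19654 and 19486 scaled reads, and only WT replicate 2 was low. The difference was 0.63 (SE 0.65), with an adjusted p of 0.666 in limma. None of the 9 genes overlaps another annotated gene (0 of 9), so reads of neighbours on either strand do not enter these counts by overlap.

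As levels per kilobase of exon, averaged over the 4 libraries, Pnpla2 led with 16844 scaled reads and was the highest member in 4 of 4 libraries. Mgll (5059), Lipe (4544), Prkar2b (4087) and Adrb3 (3911) followed, and their order cannot be given, since their ranges over the libraries overlapped widely: 1838 to 7138 for Mgll, 1222 to 7741 for Lipe, 1641 to 5382 for Prkar2b and 378 to 7448 for Adrb3. Pde3b (671) was above Abhd5 (410) in 3 of 4 libraries, also within the spread. Adrb1 (17.8) and Adra2a (1.49) were at the bottom, and Adra2a was the lowest in 4 of 4 libraries.

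**Figure D2:**
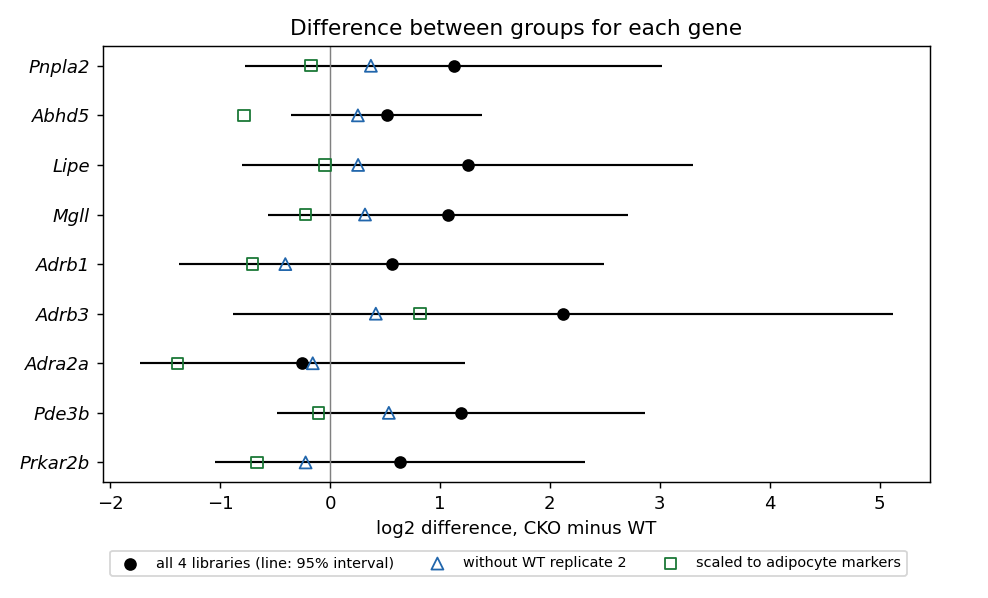
Log2 difference (CKO minus WT) of each gene with its 95% interval from limma (filled points and lines), without WT replicate 2 (triangles) and after scaling to adipocyte markers (squares). All 9 intervals hold 0, and the triangles lie between -0.41 and 0.54.

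The size of the difference depended on which libraries were kept. With 2 libraries a group, leaving out either of them moves a gene's difference equally far in opposite directions. These fits therefore cannot say which of the 2 matters more. Without WT replicate 2, the median over the 9 genes was 0.26 on the log2 scale, 6 of 9 were higher in CKO, and the differences ran from -0.41 for Adrb1 to 0.54 for Pde3b. Adrb3 was then at 0.42, Pnpla2 at 0.37, Mgll at 0.32, Lipe at 0.26, Abhd5 at 0.25, Adra2a at -0.16 and Prkar2b at -0.22. Without WT replicate 1, in a fit that assumes the lone WT library to vary like the CKO libraries, Adrb3 was 3.82 higher in CKO (SE 0.48) with an adjusted p of 0.0442 in limma. It was the only member past the threshold there, against 4.96% of genes tested that were past it and higher in CKO. At an unadjusted p under 0.05, 7 of 9 members were higher, against 17.0% of genes higher. Genes lower in CKO are not counted in either share. Without CKO replicate 1 the median was 0.52 and the differences of Abhd5 and Pde3b were 0.21 and 0.52, and without CKO replicate 2 that of Pde3b was 1.86.

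Markers of several cell types moved along with these genes. Of the lipolysis genes 8 of 9 were lowest in WT replicate 2, beside 38.2% of all genes tested. So were 10 of 12 adipocyte markers, 7 of 7 endothelial markers and 5 of 5 red blood cell markers (median difference of the latter 2.17), while 12 of 12 macrophage markers were highest there. Fibroblast markers did not share this, with 1 of 7 lowest and 4 highest in WT replicate 2, and 2 of 5 mesothelial markers were lowest there. The part of all these cells in the differences was not tested. When each library was scaled to the median of the 12 adipocyte markers, the difference of 8 of the 9 genes was negative and their median was -0.22, beside -1.27 over all genes. No member passed the adjusted threshold on that scale (0 of 9, against 0.202% of genes). Lipe then had 22549 and 22060 scaled reads in CKO against 23619 and 22468 in WT. It was thus nearly level against the median of the 12 markers, but not against each of them. Per kilobase of exon its ratio to Adipoq was 0.149 and 0.153 in CKO against 0.146 and 0.212 in WT, and the markers themselves spread on this scale, with Pparg from 5530 to 16874 and Cfd from 40449 to 253152 scaled reads.

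The other members varied more on this scale. Adrb3 had 12443 and 11116 marker-scaled reads in the CKO libraries and 11137 in WT replicate 1, but 3988 in WT replicate 2, so it was low there also against the median of the adipocyte markers. Its log2 difference on this scale was 0.82 (SE 1.24), the only positive one. Abhd5 went the other way, with 1721, 1967 and 1951 in the same libraries and 5144 in WT replicate 2. This is not particular to Abhd5: its log2 difference of -0.78 on this scale was less negative than the median of -1.27 over all genes tested. Prkar2b, at 9643 and 12554 in CKO and 16223 and 18727 in WT, did not overlap between the groups on this scale. Nor did Adrb1, at 36.7 and 49.9 in CKO and 72.0 and 69.0 in WT, the last resting on 21 reads (exact Poisson 95% interval 13 to 32.1). These 2 of 9 genes with CKO lower compare with 42.3% of all genes tested. The difference of Prkar2b there was -0.66 (SE 1.19), with an adjusted p of 0.737 in limma.

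**Figure D3:**
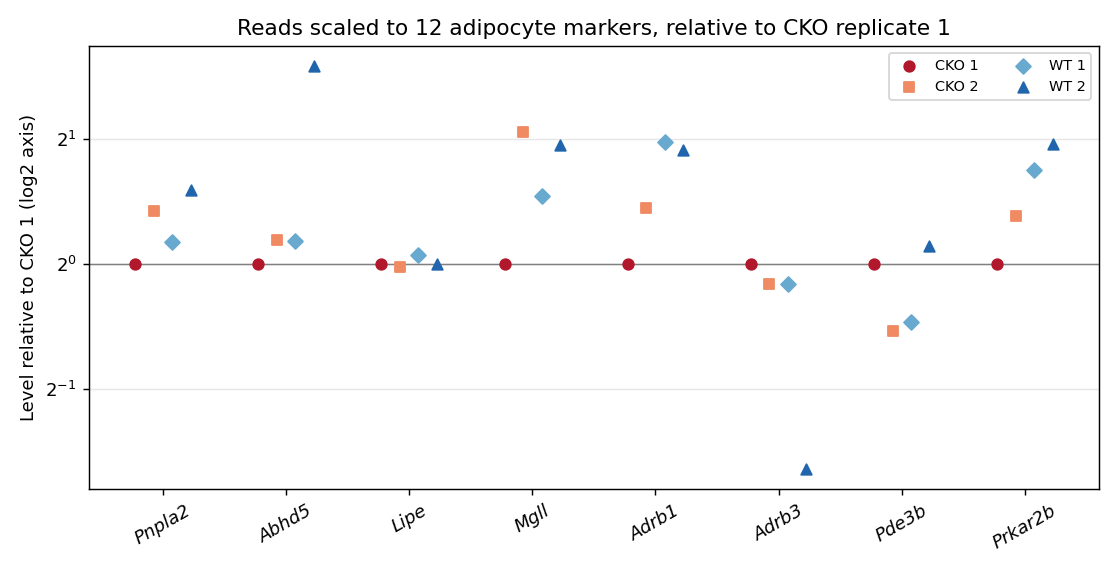
Level of 8 genes after scaling each library to the median of 12 adipocyte markers, relative to CKO replicate 1, on a log2 axis; Adra2a, with 5 to 9 reads, is left out. The 4 points of Lipe nearly coincide, while in WT replicate 2 Adrb3 lies below and Abhd5 above the other libraries. The median log2 difference over all genes tested was -1.27 on this scale, beside -0.78 for Abhd5.

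Other genes of the pathway were read from 7 lists by role. Of 89 tested, 61 had a positive and 28 a negative difference, beside 51.1% of all genes positive, with a median of 0.43, and 0 passed the adjusted threshold in limma. At an unadjusted p under 0.05, 7 were higher and 7 lower in CKO, each with an adjusted p of 0.459. That is 7 of 89 each way, beside 3.35% of all genes higher and 7.26% lower. Without WT replicate 2 the medians of the 7 lists ran from -0.25 for the G protein list to 0.30 for the other receptors. Those of the adrenoceptors (0.048), other receptors, phosphodiesterases (0.099) and droplet list (0.21) were then well below their values with all libraries. The G protein median moved less, from -0.39, and the kinase (-0.049) and cyclic AMP-responsive (0.12) medians stayed small.

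Of the adrenoceptors that are no members, 5 were tested and 4 had a positive difference (median 0.91). Adra2b, another alpha-2 receptor, was at 1.87 (SE 0.67) on 14 and 21 reads in CKO against 6 and 2 in WT. Adra1d was at 1.17 (SE 1.17) on 73 and 36 reads in CKO against 64 and 6 in WT, with overlapping groups. Adra1b was at 0.91 (SE 0.52) on 15 and 20 reads in CKO against 9 and 7 in WT.

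All 15 other receptors tested that raise or lower cyclic AMP or cyclic GMP in fat cells had a positive difference (median 1.21), and 14 were lowest in WT replicate 2. Gcgr, the glucagon receptor gene, was at 2.36 (SE 0.84), with 108 and 140 reads in CKO and 48 and 9 in WT. Hcar1, the antilipolytic lactate receptor, was at 1.93, Gipr, the receptor of the incretin GIP, at 1.81, and Npr1, the natriuretic peptide receptor that raises cyclic GMP, at 1.41. With all 4 libraries, stimulatory and antilipolytic receptors thus stood on the same side. Without WT replicate 2 the 15 differences had both signs, from -1.11 for Ptger3 to 1.22 for Gcgr, with a median of 0.30.

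G proteins, adenylyl cyclases and receptor regulators were divided, with 7 positive and 9 negative differences among 16 tested (median -0.39). Adcy7, an adenylyl cyclase, was at -2.93 (SE 0.82), with 363 and 1195 reads in CKO and 2356 and 8940 in WT. Rgs2, which speeds the switching off of G proteins, was at -2.39, the beta-arrestin gene Arrb2 at -1.39 and the receptor kinase gene Grk2 at -0.92. These 4 were highest in WT replicate 2, as were the macrophage markers, and the part of macrophage RNA in their differences was not tested.

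The protein kinase A list was centred near 0 (median -0.01, with 6 of 12 positive). Pkib, an inhibitor of the kinase, was at -3.77 (SE 1.00), with 17 and 77 reads in CKO and 219 and 991 in WT. The anchoring protein genes Akap12 and Akap1 were at 1.31 and 0.96. The catalytic subunit genes Prkaca and Prkacb, named after their values were seen, were at 0.13 and -0.14. Of 15 phosphodiesterases tested, 10 had a positive difference (median 0.43), led by Pde4c at 2.42 (SE 0.59) on 24 and 37 reads in CKO against 6 and 3 in WT. Pde1a and Pde10a were at 1.62 and 1.39.

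Droplet proteins and lipase partners had a median of 1.10, with 14 of 18 positive. The carboxylesterase gene Ces1d was at 2.11 and Abhd6, a monoglyceride hydrolase, at 1.63. Daglb, a diglyceride lipase, was at -3.00 (SE 0.73), with 830 and 2384 reads in CKO and 5738 and 18265 in WT. Hilpda, an inhibitor of the Pnpla2 protein, was at -2.15 and the coat protein gene Plin3 at -0.97. All 4 genes of this list with a negative difference were highest in WT replicate 2.

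Genes known to respond to cyclic AMP were centred near 0, with a median of 0.02 over 8 tested and 0 at an unadjusted p under 0.05. Ppargc1a, a coactivator of mitochondrial genes, was at 1.33 (SE 0.68), Crem at 0.14 and Nr4a3 at -0.30. Of these 8, 2 were lowest in WT replicate 2, beside 38.2% of all genes tested.

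**Figure D4:**
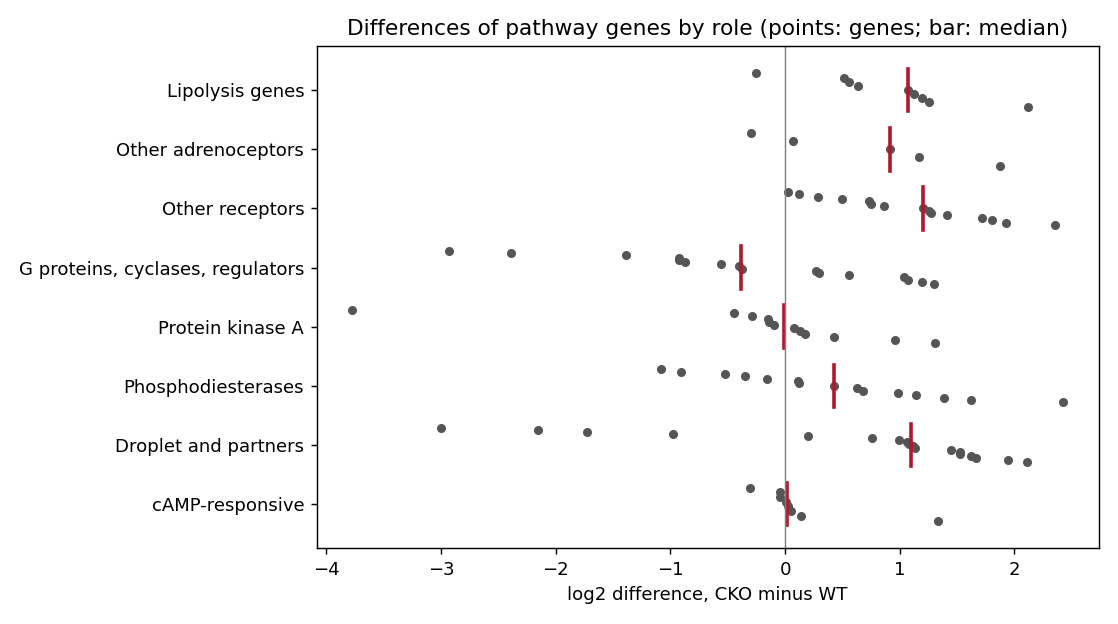
Log2 difference (CKO minus WT) of each tested gene in the lipolysis set and in 7 lists of the pathway, with 1 point per gene and a bar at the median. The receptor and droplet lists are centred between 0.91 and 1.21, the kinase and cyclic AMP-responsive lists near 0, and the G protein list at -0.39.

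Among all genes tested, those nearest to the mean profile of the 4 lipase genes over the 4 libraries were Phldb1, Srgap1, Adh1, Fam71e1, Cdc42ep5 and Bcl9l, by Euclidean distance between log2 levels centred on each gene's mean. Phldb1 was at a distance of 0.059, and had 2229 and 1869 reads in CKO and 1471 and 549 in WT. Adh1, an alcohol dehydrogenase, was at 0.081, and Bcl9l, a coactivator of Wnt signalling, at 0.109. For comparison, the 4 lipase genes, which make up this profile, were at 0.159 (Pnpla2), 0.471 (Mgll), 0.591 (Lipe) and 0.789 (Abhd5). The distance of Prkar2b was 0.427, that of Adipoq 1.00 and that of Adrb3 1.86. With 4 libraries, such a ranking describes these samples only.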

How the data were processed

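RNA was read from 2 CKO and 2 WT libraries of perigonadal adipocytes. Per the submitters' processing notes, reads were inspected with FastQC and aligned with STAR 2.7.5c to GRCm38.p6; for read counting, the tool, gene models and use of strand were not given in the sources available. The deposited values are log2 values that the authors named normalised counts. Undoing the log2 and subtracting 1 returned whole numbers (tolerance 0.01) for 100% of genes, and library totals differed, so they are log2(reads + 1) without scaling. All 4 value columns were used.

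Reads were divided by median-ratio size factors (0.998 and 1.10 for CKO, 0.963 and 0.951 for WT) and taken to log2 with a pseudocount of 1, which understates differences of weakly expressed genes. The 16871 genes whose deposited values averaged 3 or more were fitted on group with limma 3.58.1 in R 4.3.3 (trend, two-sided, Benjamini-Hochberg adjustment over all genes tested). With 2 libraries a group, an exact permutation test cannot go below 0.333, so none is given. The code of the fit was tested on simulated data with less spread between libraries than most members had in WT. That test does not give the power or error rate on these data. Coordinates and exon lengths come from GENCODE M21 (99.3% of identifiers matched with their version).

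The members, lists and tests were chosen with earlier results of these data known. Named genes are all members, the 3 of largest difference in each pathway list and those at an unadjusted p under 0.05, the 6 nearest to the lipase profile, Adipoq and Adgre1. Outside this rule, Prdm1 is named for the series title. Fabp4, Cfd, Lpl, Lep, Cidec, Pparg, Ucp1, Npy, Th, Dbh, Slc6a2, Cidea, Ptger3, Prkaca and Prkacb were chosen after their values were seen. Beside this, 15 other settings were run. Markers of 13 cell types were read: Adgre1 had 1384 and 3106 reads in CKO and 8071 and 31880 in WT. Median log2 differences were 1.29 for adipocyte, -2.37 for macrophage, -3.83 for lipid-associated macrophage, 1.20 for endothelial, -0.81 for fibroblast, -0.38 for mesothelial, 0.84 for smooth muscle, 1.27 for lymphocyte, 0.48 for neutrophil and mast cell and 2.17 for red blood cell markers. Epididymal markers had at most 9 reads in sum, and of the sympathetic neuron and brown adipocyte markers 1 each was tested (Npy, -4.37, and Cidea, 0.20). Npy had 0 and 19 reads in CKO against 43 and 161 in WT, and does not stand for its list. Of the neuron markers not tested, Th and Dbh had at most 2 reads in any library. Slc6a2 went the other way from Npy, with 9 and 4 reads in CKO against 1 and 2 in WT. 1 gene of the pathway lists is counted in its list and not reported here by name.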

Additional observations from a re-analysis of the deposited data

How the results depend on the processing

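The absence of calls held under 13 of 15 other settings for all genes. With scaling to adipocyte markers 34 genes passed the adjusted threshold, and leaving out 1 library gave 0 to 1775 genes, 0 to 1 members past it and 0 to 7 members at an unadjusted p under 0.05, the upper values all without WT replicate 1. The median difference of the members was 0.26 without WT replicate 2, 0.52 without CKO replicate 1, 0.95 without CKO replicate 2, 1.83 without WT replicate 1, and -0.22 with scaling to adipocyte markers. On that scale 7 members changed sign: Pnpla2 (-0.17), Abhd5 (-0.78), Lipe (-0.047), Mgll (-0.22), Adrb1 (-0.71), Pde3b (-0.11) and Prkar2b (-0.66). Adrb1 (-0.41) and Prkar2b (-0.22) also did so without WT replicate 2, and Adra2a (0.053) without CKO replicate 1. Over the fits leaving out 1 library, Adrb1 reached 1.53, Prkar2b 1.49 and Adra2a -0.55. The median of all genes shifted to 0.147 with unscaled values and to -1.27 with scaling to adipocyte markers. Of 133 values of single members under these settings, 122 kept direction and side of the threshold. A minimum mean of 6 left out Adrb1 and Adra2a, whose 5 to 84 reads limit them. No paired analysis was possible because the labels number no replicates, and the numbers used here only name the libraries.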
